A study of Mus musculus with 7 samples.

Results

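Retinoic acid is made from retinaldehyde by enzymes such as Aldh1a2 and is broken down by the cytochrome P450 enzymes Cyp26a1, Cyp26b1 and Cyp26c1. It acts through nuclear receptors, Rara, Rarb and Rarg, which bind DNA as heterodimers with a retinoid X receptor such as Rxra, mostly at direct repeats of a hexamer of the type AGGTCA. Nr2f1 and Nr2f2 (also called COUP-TFI and COUP-TFII) are orphan nuclear receptors that can bind repeats of the same hexamer. In the embryo, retinoic acid is known for patterning the posterior branchial arches and the outflow tract of the heart. These 10 genes were taken as a fixed list of 1 synthesis gene, 3 breakdown genes, 4 receptor genes and 2 Nr2f genes, out of 21883 protein-coding genes on the assembled chromosomes, and all 10 were found in the gene table. Every β-catenin and Pygo2 peak inside each gene or within 100 kb of it was listed.

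The peaks came from chromatin immunoprecipitation followed by sequencing (ChIP-seq) on branchial arches pooled from many mouse embryos of 10.5 days post coitum. The labels describe the tissue as wild type and the antibodies as directed against the wild-type β-catenin and Pygo2 proteins, and they name no strain and no treatment other than cross-linking with ethylene glycol-bis(succinimidyl succinate) and formaldehyde. The groups used here are the β-catenin BA2 library and the Pygo2 BA2 library, 1 library each, with IgG BA1 as the control named in the headers of both lists, and what separates BA1 from BA2 is not stated. β-catenin carries the canonical Wnt signal into the nucleus, and Pygo2 is a PHD-finger protein linked to it through Bcl9. The lists held 1079 β-catenin peaks (169 bp wide each) and 7150 Pygo2 peaks (167 bp wide each), from 13672937 and 15009636 tags, with means of 14.6 and 15.5 tags per peak. Peaks held 0.116% of the β-catenin tags and 0.74% of the Pygo2 tags. The labels also list a BA1 library of each protein, which was not analysed here. With 1 list per protein, no value has a replicate error and no test was made. A tag count or height for each peak was not used here, and since peak positions do not measure expression, tissue markers were not checked.

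Pygo2 peaks lay within 100 kb of 7 of the 10 genes, and β-catenin peaks within 100 kb of 2. The background is the share of all 21883 protein-coding genes with such a peak, which was 17.2% for β-catenin and 57.6% for Pygo2. Both shares among the 10 genes, 2 and 7 of 10, were near these backgrounds. The genes with a Pygo2 peak were Rara, Rarg, Rxra, Cyp26a1, Cyp26c1, Nr2f1 and Nr2f2, and those with a β-catenin peak were Rara and Rarg. Rarb, Aldh1a2 and Cyp26b1 had no peak of either list in their windows. In all, the windows held 3 distinct β-catenin peaks and 23 distinct Pygo2 peaks, the 1 Pygo2 peak at Cyp26a1 and Cyp26c1 being the same peak.

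**Figure D1:**
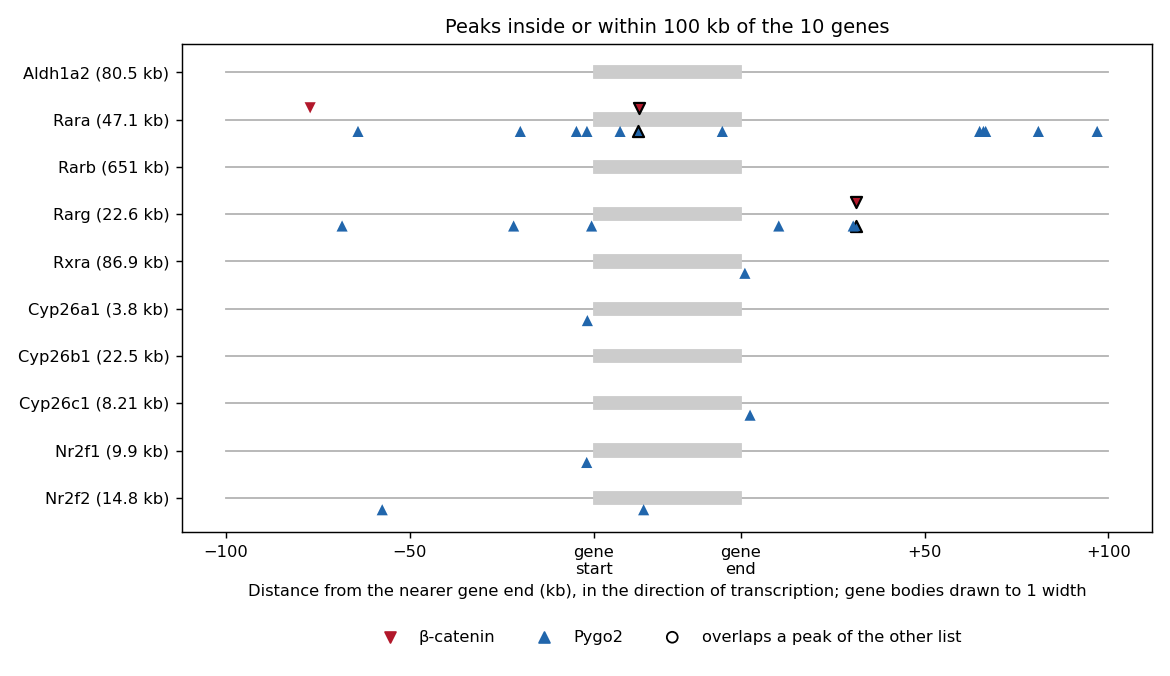
Peaks around each of the 10 genes, 1 row per gene with its length, drawn in the direction of transcription. The x axis gives the distance in kb from the nearer gene end to the nearer peak edge, and gene bodies (grey) are all drawn to the same width, with peaks inside placed by their fraction of the gene; red triangles are β-catenin peaks, blue triangles Pygo2 peaks, and black outlines mark overlapping peaks. Rara has 2 β-catenin and 12 Pygo2 peaks, Rarg 1 and 6, and the rows of Aldh1a2, Rarb and Cyp26b1 are empty.

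Promoter sequences are shown for 2 reasons. Those of Rarb and Cyp26a1 carry the textbook element of the pathway, and that of Rarg is the member promoter nearest to any peak. The sequences are the 250 bases before a RefSeq start site on GRCm38.p6, 5′ to 3′ on the strand of the gene. Capitals in Rarb and Cyp26a1 mark 2 hexamers in the same direction separated by 5 bases, each hexamer being AGGTCA or a known variant of it (the form AGTTCA, then the form GGGTCA, then the form GGTTCA), on either strand. Capitals in Rarg mark the hexamer AGGTCA, read here on the opposite strand as TGACCT.
Rarb, chr14:16575477-16575726, minus strand: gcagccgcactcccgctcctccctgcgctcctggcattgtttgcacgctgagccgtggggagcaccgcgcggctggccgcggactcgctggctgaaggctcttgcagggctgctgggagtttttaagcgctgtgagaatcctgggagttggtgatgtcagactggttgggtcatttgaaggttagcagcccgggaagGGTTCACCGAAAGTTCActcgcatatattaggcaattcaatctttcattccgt
Cyp26a1, chr19:37697558-37697807, plus strand: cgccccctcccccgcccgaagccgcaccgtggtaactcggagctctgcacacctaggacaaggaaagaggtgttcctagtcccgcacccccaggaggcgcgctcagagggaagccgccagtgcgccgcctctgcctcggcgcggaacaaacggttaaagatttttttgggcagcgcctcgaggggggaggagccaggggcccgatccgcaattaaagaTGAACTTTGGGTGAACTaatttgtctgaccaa
Rarg, chr15:102257523-102257772, minus strand: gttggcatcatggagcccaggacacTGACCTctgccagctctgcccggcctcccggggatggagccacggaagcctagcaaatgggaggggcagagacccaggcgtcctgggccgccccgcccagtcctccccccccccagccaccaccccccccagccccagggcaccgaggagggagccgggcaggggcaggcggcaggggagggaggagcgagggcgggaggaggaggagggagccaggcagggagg
The repeat spans positions -53 to -37 from the start site in Rarb and -32 to -16 in Cyp26a1. It was found in 29 of 32851 promoter windows of this length (0.0883%), and 2 of the 16 windows of the 10 genes were among them. The variants were added after the same repeat made of AGGTCA alone, present in 3 of the 32851 windows, was found in none of the 16. The hexamers at Rarb (GGTTCA and AGTTCA) and at Cyp26a1 (AGTTCA in both places, on the opposite strand) are themselves among the added variants. The matches at Rarb and Cyp26a1 therefore cannot be weighed against the share of all windows. Repeats of the variants separated by 1 base or by 2 bases were in 54 and 57 of all windows and in none of the 16. The single hexamer AGGTCA was in 14.0% of all windows and in 2 of the 16, 1 of Rarg and 1 of Rxra. The TCF/LEF core CTTTGA, searched on both strands because β-catenin reaches DNA through TCF/LEF factors, was in 13.8% of all windows and in 2 of the 16, 1 each of Nr2f2 and Cyp26c1. A match describes letters in a window and is no measure of binding.

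None of the 16 promoter windows of the 10 genes, which run from 250 bases before to 50 bases after a start site, was overlapped by a peak of either list. The share of all promoter windows that a peak overlaps is not given here, so this count has no background. The closest was that of Rarg, with a Pygo2 peak centre at -652 bp from the start site, where minus means upstream. The outermost listed start site of Rara followed with a Pygo2 peak centre at -1434 bp, then Cyp26a1 at -1868 bp and Nr2f1 at -1983 bp. The nearest peaks to the repeat-bearing Rarb start site had their centres at -1662739 bp for Pygo2 and -3409452 bp for β-catenin.

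Aldh1a2, which makes most of the retinoic acid of the early embryo, had no peak in its window of 280 kb. Its gene spans 71215789 to 71296243 on chromosome 9 (80.5 kb). The nearest β-catenin peak lay 409515 bp from the gene and the nearest Pygo2 peak 352155 bp.

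Among the receptor genes, Rara had the most peaks. Rara encodes retinoic acid receptor alpha and spans 98927800 to 98974942 on chromosome 11 in the gene table, a span that begins at -9.9 kb from its first listed start site. Its window held 2 β-catenin peaks and 12 Pygo2 peaks. Of all protein-coding genes, 4.26% had 2 or more β-catenin peaks and 0.663% had 12 or more Pygo2 peaks in such a window. These shares do not allow for gene density, and the Rara window held 10 protein-coding genes. Genes with 10 to 13 in the window had 2.92 Pygo2 peaks on average and at most 21, and 28.8% of them had a β-catenin peak. Rara was the only 1 of the 10 genes with a β-catenin peak inside it, where the background is 2.62% of all genes, and Rara and Nr2f2 were the 2 with a Pygo2 peak inside, against 17.4% of all genes.

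The β-catenin peak inside Rara spanned 98942171 to 98942339, with its centre 2.54 kb downstream of the nearest of the 4 listed start sites. It overlapped the Pygo2 peak at 98942026 to 98942192 by 22 bp. The predicted protein-coding gene Gm46294, annotated within the span of Rara, holds the whole of that Pygo2 peak and part of the β-catenin peak. Another Pygo2 peak, at 98936179 to 98936345, lay inside the annotated span and at -1434 bp from the first listed start site. The third inside peak, at 98968957 to 98969123, lay 4.17 kb downstream of the last listed start site. A Pygo2 peak at 98925801 to 98925967 lay 1833 bp upstream of the gene, overlapped no annotated gene, and had Rara as its nearest protein-coding gene.

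The remaining Pygo2 peaks in the Rara window lay nearer to other genes. They were nearest to Cdc6, a DNA replication licensing gene (2 peaks, 1 of them 4696 bp from Rara and 1 with its centre at -394 bp from the Cdc6 start site), Wipf2 (1 peak), Tns4 (1 peak) and Igfbp4, which encodes an insulin-like growth factor binding protein (4 peaks). When a peak counted for its nearest gene alone, Rara kept 4 of its 12 Pygo2 peaks and 1 of its 2 β-catenin peaks. The other β-catenin peak, at 98850503 to 98850671, lay inside Rapgefl1, 77.1 kb from Rara and 12.8 kb from the nearest Pygo2 peak.

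**Figure D2:**
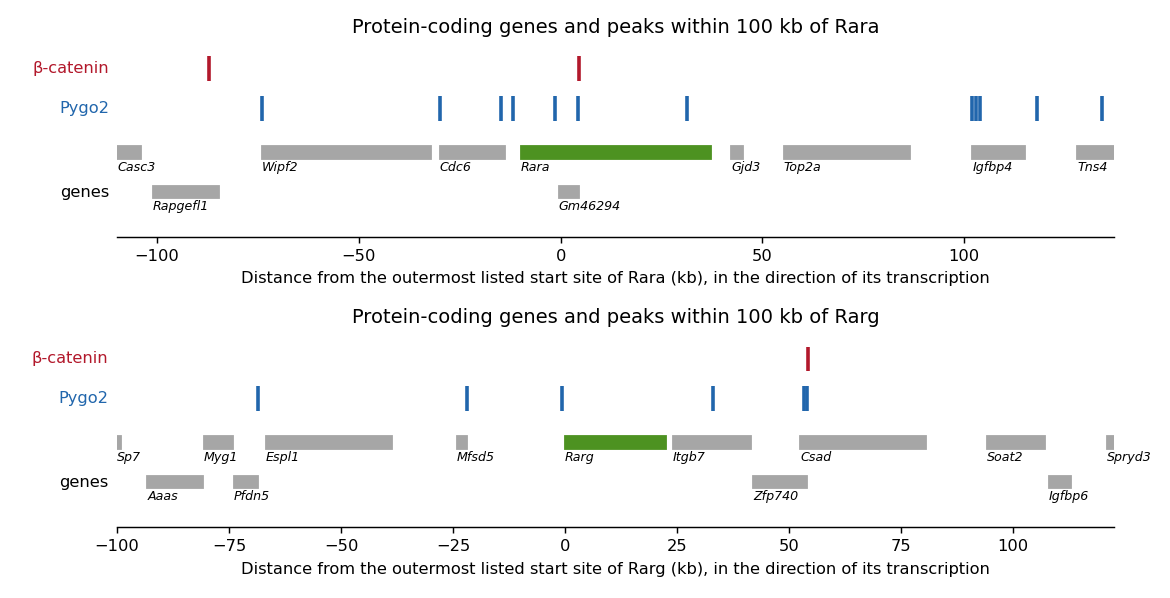
Protein-coding genes (grey, the named receptor gene in green) and peak centres (red for β-catenin, blue for Pygo2) in the windows of Rara and Rarg, with distance in kb from the outermost listed start site along the x axis. In the Rara window 3 Pygo2 peaks sit together near 102 to 104 kb at Igfbp4, and in the Rarg window the only β-catenin peak sits at 54.1 kb, inside Csad.

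Rarg, the gene of retinoic acid receptor gamma, had 6 Pygo2 peaks and 1 β-catenin peak in its window, and 1 of them had Rarg as its nearest gene. Rarg spans 102234938 to 102257522 on chromosome 15. The Pygo2 peak nearest to it, at 102258091 to 102258257, lay 569 bp upstream of the gene and overlapped no annotated gene. The β-catenin peak at 102203313 to 102203481 lay 31457 bp beyond the 3′ end of Rarg, inside Csad, which encodes an enzyme of taurine synthesis. It overlapped the Pygo2 peak at 102203437 to 102203603 by 45 bp, and that peak lay in both Csad and Zfp740, a zinc finger gene. The listed start site nearest to both peaks was of Zfp740. The β-catenin peak centre was at -603 bp from it and that of the Pygo2 peak at -480 bp. Of the other Pygo2 peaks, 1 lay again in Csad and Zfp740, 30.6 kb from Rarg and centred 257 bp downstream of a Zfp740 start site. Further Pygo2 peaks lay in Itgb7 (1 peak, 10.3 kb from Rarg), at Mfsd5 (1 peak, 21.8 kb) and at Pfdn5 (1 peak, 68.4 kb). Of all protein-coding genes, 7.32% had 6 or more Pygo2 peaks in such a window. This share does not allow for gene density either, and the Rarg window held 13 protein-coding genes.

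Sequence could be read for peaks of these windows where they reach into a promoter of another gene. For Igfbp4, Mfsd5 and Pfdn5 most of the peak lies in the 250 bases before a start site, and these are shown as the bases that the Pygo2 peaks cover, with the peak in capitals.
Igfbp4, chr11:99040994-99041243, plus strand: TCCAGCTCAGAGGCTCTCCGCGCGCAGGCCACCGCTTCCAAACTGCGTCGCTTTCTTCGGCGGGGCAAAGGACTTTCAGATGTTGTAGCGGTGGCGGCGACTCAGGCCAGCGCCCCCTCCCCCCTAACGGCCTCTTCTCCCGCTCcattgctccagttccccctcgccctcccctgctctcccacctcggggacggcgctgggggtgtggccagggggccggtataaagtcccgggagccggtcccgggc
Mfsd5, chr15:102279206-102279455, plus strand: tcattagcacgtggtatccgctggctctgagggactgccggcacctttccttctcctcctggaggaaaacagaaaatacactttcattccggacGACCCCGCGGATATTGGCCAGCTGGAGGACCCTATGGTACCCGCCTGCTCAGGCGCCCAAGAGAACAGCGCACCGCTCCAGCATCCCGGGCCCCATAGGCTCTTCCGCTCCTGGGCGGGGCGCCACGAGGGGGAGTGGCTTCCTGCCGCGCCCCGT
Pfdn5, chr15:102325866-102326115, plus strand: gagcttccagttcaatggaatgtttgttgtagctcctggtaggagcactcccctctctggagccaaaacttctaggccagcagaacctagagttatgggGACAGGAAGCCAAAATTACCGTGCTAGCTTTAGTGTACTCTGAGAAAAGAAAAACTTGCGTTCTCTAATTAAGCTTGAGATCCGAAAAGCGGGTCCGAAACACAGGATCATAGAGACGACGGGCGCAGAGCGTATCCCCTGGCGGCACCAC
The capitals cover 145 bp of the Igfbp4 promoter, 156 bp of that of Mfsd5 and 151 bp of that of Pfdn5. The peak centres lay at -189 bp, -73 bp and -68 bp from these start sites. The peak that also lay in the Rara window at Wipf2 was centred 4 bp from a Wipf2 start site. These 4 Pygo2 peaks are therefore at start sites of neighbouring genes, 64.1 to 66.0 kb from Rara for Wipf2 and Igfbp4 and 21.8 to 68.4 kb from Rarg for Mfsd5 and Pfdn5.

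Rarb, the gene of retinoic acid receptor beta and itself a classical retinoic acid target, had no peak of either protein. It is the longest of the 10 genes, spanning 651 kb on chromosome 14 (16430839 to 17082331), and its window covers 851 kb. The nearest Pygo2 peak lay 1155801 bp from the gene and the nearest β-catenin peak 2902513 bp. Of the 136 protein-coding genes at least as long as Rarb, 115 (84.6%) lacked a β-catenin peak and 76 (55.9%) lacked a Pygo2 peak in the same kind of window.

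Rxra, the retinoid X receptor alpha gene on chromosome 2 (27676445 to 27763319), had a single peak in its window, of Pygo2. This peak, at 27764448 to 27764614, lay 1129 bp beyond the 3′ end of the gene and 55.2 kb from the nearest listed start site. It overlapped no annotated gene, and Rxra was the only protein-coding gene reaching into its window. The nearest β-catenin peak was 773318 bp from Rxra.

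Of the breakdown genes, Cyp26a1 and Cyp26c1 are neighbours on chromosome 19 and had a single Pygo2 peak between them. Cyp26c1 spans 37685112 to 37693320 and Cyp26a1 37697738 to 37701536, and both are transcribed on the plus strand. The peak, at 37695857 to 37696023, lay 1715 bp upstream of Cyp26a1 and 2537 bp beyond the end of Cyp26c1, inside the long noncoding RNA gene Gm32342. Its centre was at -1868 bp from the Cyp26a1 start site, whose proximal repeat is shown above, so the peak does not cover that repeat. The nearest β-catenin peak was 3851276 bp from Cyp26a1. Cyp26b1 on chromosome 6 (84571414 to 84593908) had no peak in its window, with the nearest Pygo2 peak at 163362 bp and the nearest β-catenin peak at 1434220 bp.

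Nr2f1 and Nr2f2, which encode transcription factors with roles in the developing heart and nervous system, each had Pygo2 peaks in the window but none of β-catenin. At Nr2f1 on chromosome 13 (78188971 to 78198873) the peak spanned 78200773 to 78200939, 1900 bp upstream of the gene, inside the noncoding gene A830082K12Rik. At Nr2f2 on chromosome 7 (70351946 to 70366746) 1 Pygo2 peak, at 70361636 to 70361802, lay inside the gene, 5.03 kb downstream of its start site. A listed start site of B130024G19Rik was nearer to this peak, with the peak centre at -3664 bp from it. The other Pygo2 peak, at 70424271 to 70424437, lay 57525 bp upstream of Nr2f2 and overlapped no annotated gene. Nr2f2 was the only protein-coding gene reaching into the window. The nearest β-catenin peaks were 650507 bp from Nr2f1 and 717356 bp from Nr2f2.

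Each of the 7 genes with a Pygo2 peak in the window had at least 1 such peak close to the gene. Within 10 kb and within 50 kb there were the same 7 of the 10 genes, against 30.0% and 46.6% of all protein-coding genes. These 7 are by definition the genes with a Pygo2 peak within 100 kb. Of the 12602 protein-coding genes with such a peak, 6573 had 1 within 10 kb and 10188 within 50 kb. Within 2 kb there were 6 of the 10 genes against a background of 24.0%, and within 1 kb 3 of 10 (Rara, Rarg and Nr2f2) against 23.0%. The peaks of Rxra, Cyp26a1 and Nr2f1 lay between 1 and 2 kb from the gene, and the 2 kb limit was chosen after these distances were seen. For β-catenin, Rara was the 1 gene of the 10 with a peak within 10, 2 or 1 kb, against 5.48%, 3.92% and 3.66% of all genes. With 10 genes and 1 library no test was made of these counts, and Cyp26a1 and Cyp26c1 share their peak.

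**Figure D3:**
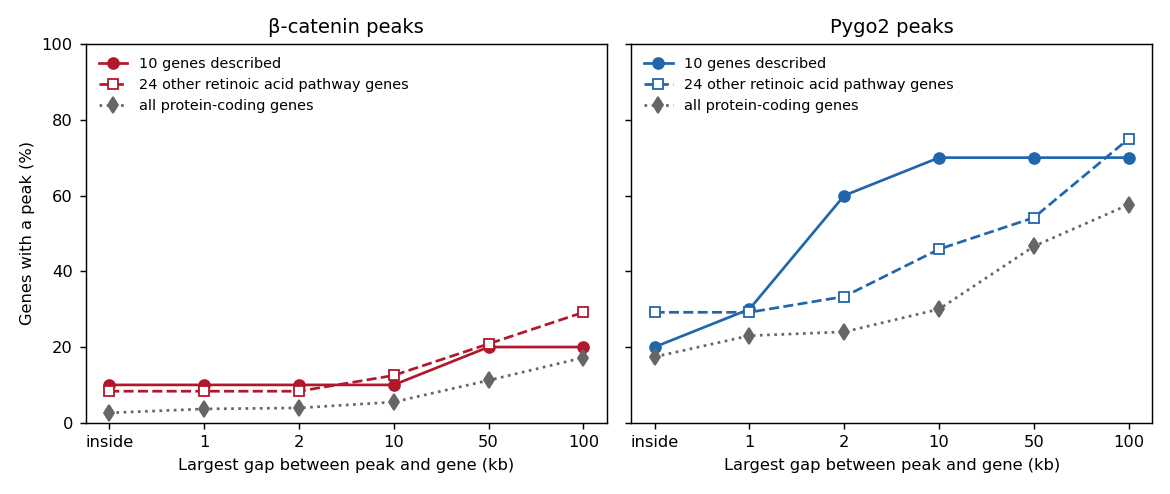
Share of genes with a peak (y axis, %) against the largest gap allowed between peak and gene (x axis, kb, not to scale), for β-catenin on the left and Pygo2 on the right. Filled points are the 10 genes, open squares the 24 other pathway genes, and grey diamonds all 21883 protein-coding genes; for Pygo2 the 10 genes reach 7 of 10 at 10 kb and stay there to 100 kb, while all genes go up to 57.6%.

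Overlap of the lists at these genes was limited to the pairs in the Rara and Rarg windows. Of the 3 distinct β-catenin peaks, 2 (66.7%) overlapped a Pygo2 peak, and of the 23 distinct Pygo2 peaks 2 (8.7%) overlapped a β-catenin peak. Over the whole lists, the shares were 25.3% of the β-catenin peaks and 3.82% of the Pygo2 peaks, from 273 pairs. Overlapping peaks were within 100 kb of 2 of the 10 genes, against 6.33% of all protein-coding genes. Both overlaps were short: the 22 bp at Rara and the 45 bp in the Rarg window compare with a median of 125 bp over the 273 pairs, and 5.49% and 13.9% of pairs overlapped by as little. The peak centres were 146 bp and 123 bp apart, against a median of 43 bp. With an overlap of at least 85 bp required, 0 of the 3 β-catenin peaks counted as shared.

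**Figure D4:**
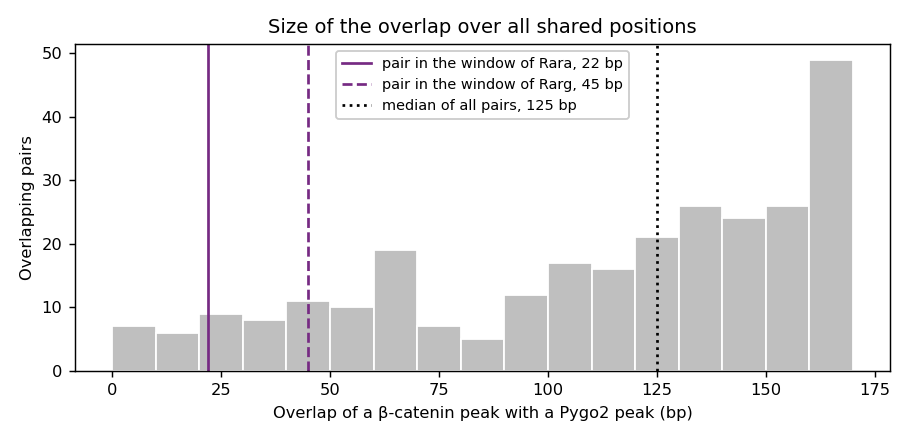
Number of pairs of overlapping β-catenin and Pygo2 peaks (y axis) by the length of the overlap in bp (x axis), over all 273 pairs in bins of 10 bp. The pairs in the Rara window (22 bp) and in the Rarg window (45 bp) lie to the left of the median of 125 bp.

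The position of a peak in the deposited list was the only ordering at hand, and the headers do not state how the lists were sorted. The shared pair inside Rara was at position 228 of 1079 in the β-catenin list and 641 of 7150 in the Pygo2 list. The β-catenin peak of the Rarg window was at position 1033 of 1079. The Pygo2 peak between Cyp26c1 and Cyp26a1 was at position 6635 of 7150, that at Rarg at 4673, that at Nr2f1 at 2452 and that inside Nr2f2 at 1567. In the first 50% of each list there were 1 of the 3 β-catenin peaks and 19 of the 23 Pygo2 peaks.

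The number of Pygo2 peaks in a window went with the number of protein-coding genes there. The Rara window held 10 protein-coding genes, that of Rarg 13, and the other 8 windows 1 to 3. Genes with 1 protein-coding gene in the window (themselves) had 0.361 Pygo2 peaks on average, those with 2 or 3 had 0.69, and those with 10 to 13 had 2.92. Rxra and Nr2f2, each alone in their windows, had 1 and 2 Pygo2 peaks, and 21.3% of the 1181 genes that are alone had any. For β-catenin, 7.54% of the genes that are alone, 8.64% of those with 2 or 3 genes and 28.8% of those with 10 to 13 had a peak. What part gene density has in the counts of either protein at Rara and Rarg was not tested.

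**Figure D5:**
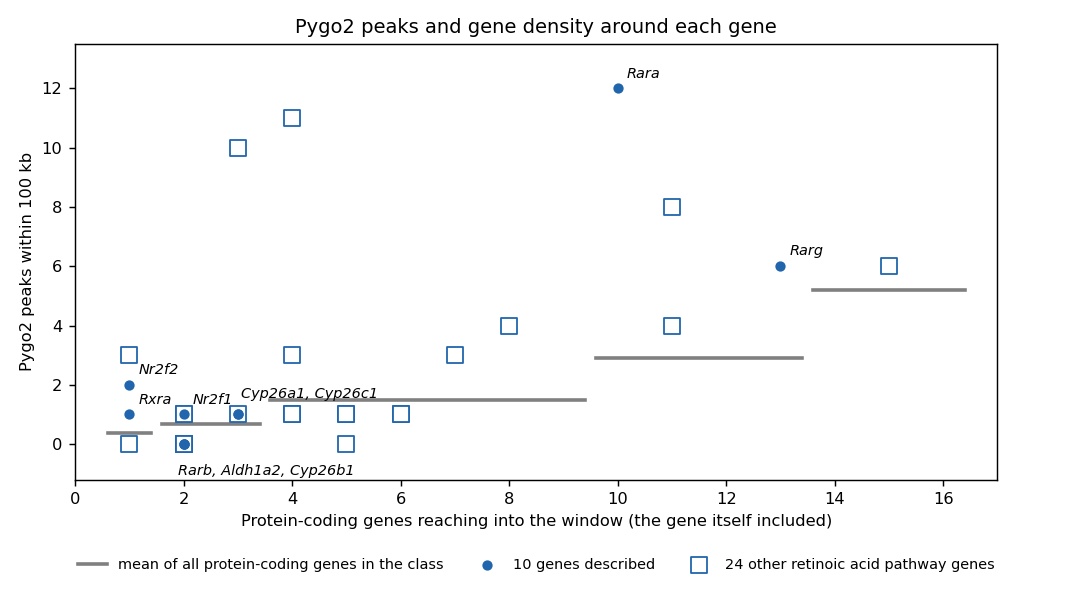
Pygo2 peaks within 100 kb (y axis) against the number of protein-coding genes reaching into the window (x axis). Filled points are the 10 genes, open squares the 24 other pathway genes, and grey bars the mean of all protein-coding genes with 1, 2 to 3, 4 to 9, 10 to 13 or at least 14 genes in the window; Rara lies at 12 peaks where the mean of its class is 2.92.

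The other genes of the pathway were described from a list of 24 that covers further receptors, enzymes, carriers and co-regulators. Within 100 kb, β-catenin peaks were found for 7 of these and Pygo2 peaks for 18, against the backgrounds of 17.2% and 57.6%. Inside the gene or within 10 kb, peaks of β-catenin were found for 3 genes and of Pygo2 for 11, against 5.48% and 30.0% of all genes. Overlapping peaks were in the windows of 2, Nr2f6 and Rxrb, that of Rxrb lying at Brd2 and 81.0 kb from the gene, against 6.33% of all genes.

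Among genes of retinol handling, Stra6, the cell surface receptor for retinol bound to its carrier, had 1 β-catenin peak (chromosome 9, 58125881 to 58126049) and 2 Pygo2 peaks inside it. Both kinds lay apart, with 2.86 kb between the β-catenin peak and the nearest Pygo2 peak, and that Pygo2 peak was centred at -98 bp from a listed Stra6 start site. Adh5, an alcohol dehydrogenase gene, had a Pygo2 peak inside it, centred 11 bp from a start site. Rdh10, a main retinol dehydrogenase gene of the embryo, had a Pygo2 peak 1416 bp away that lay inside Rpl7, a ribosomal protein gene. Crabp2, a retinoic acid carrier gene, had a Pygo2 peak 7455 bp away.

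The synthesis genes Aldh1a1 and Aldh1a3 had no peak of either list within 100 kb, as was the case for Aldh1a2. Nor had Rxrg, Adh1, Ncoa2 or Zfpm2, the last a partner of Gata factors in the heart. The windows of Aldh1a1, Aldh1a2 and Aldh1a3 each held 2 protein-coding genes. Among all genes with 2 or 3 in the window, Pygo2 peaks were present for 39.6% and β-catenin peaks for 8.64%. For either list, most genes of that class therefore had none, and the absence does not set the synthesis genes apart.

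Of the co-regulator genes, Nrip1 had 3 Pygo2 peaks, all inside the gene, 1 of them centred at -240 bp from a start site. Ncoa3 had 11 Pygo2 peaks, 2 of them inside. Ncor1 had 1 inside and 1 at 907 bp from the gene that lay in Pigl. Med1 had 1 at 9290 bp, in Cdk12. Ncoa1 had a β-catenin peak inside it (chromosome 12, 4417657 to 4417825) and a Pygo2 peak 58758 bp from the gene, 229 kb from that β-catenin peak. Nr2f6, the third Nr2f gene of the mouse, had an overlapping pair 2597 bp beyond its end, at Ocel1 (chromosome 8, β-catenin peak 71371353 to 71371521), with an overlap of 139 bp.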

How the data were processed

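Branchial arch ChIP-seq of 7 libraries was described by the labels, and the peak lists of 2 of them, β-catenin BA2 and Pygo2 BA2, were used. Per the file headers, the authors called peaks with HOMER findPeaks in factor style, on 1 library per list, against IgG BA1, at a false discovery rate of 0.001 (a minimum of 11 β-catenin tags or 10 Pygo2 tags), with a 2-fold excess over both IgG and the local 10000 bp, and a Poisson p-value of 1.00e-04. Tools and build (Bowtie, Bowtie2, HOMER, mm10) are named without versions, per the submitters' processing notes. The deposited score is 1 for every peak and ranks nothing.

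Coordinates were made 1-based. Genes, spans and promoter sequences came from RefSeq tables of GRCm38.p6, the assembly of mm10, with the 21883 protein-coding genes on chromosomes 1 to 19, X and Y. All 10 genes and all 24 other pathway genes matched. A distance is the gap between the nearest edges of peak and gene, 0 if they overlap, and overlap means at least 1 bp. Start sites are those of the promoter table, which covers all 10 genes. Exons and introns were not told apart, since the tables give none.

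Backgrounds are shares of all protein-coding genes under the same rule, with no test. The genes, lists and limits were chosen with earlier results of these data known. Named genes were all 10, the nearest gene of each peak in their windows, and other pathway genes with a peak within 10 kb, some of which are not reported here. Genes without a peak, Rxrb, and the 4-variant hexamer were added after values were seen. Distances and overlaps were checked on simulated data. Alternatives were windows of 50, 10, 2 and 1 kb, nearest genes only, part of the list, peak centres and other overlap limits. Python 3.11.15, NumPy 2.4.6, pandas 2.3.3 and Matplotlib 3.10.9 were used.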

Additional observations from a re-analysis of the deposited data

How the results depend on the processing

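Measuring from peak centres changed none of the counts. A window of 50 kb gave 15 distinct Pygo2 peaks at the 10 genes instead of 23, and left the counts of genes within 1.5 times. At 10 kb there were 1 β-catenin peak at 1 gene, 1 overlapping, and 10 Pygo2 peaks, with 3 and 11 of the other pathway genes having a β-catenin and a Pygo2 peak. At 2 kb there were 1 β-catenin peak at 1 gene, 1 overlapping, and 9 Pygo2 peaks, with 2 and 8 other pathway genes. At 1 kb there were 1 β-catenin peak at 1 gene, 1 overlapping, and 5 Pygo2 peaks at 3 genes, with 2 and 7 other pathway genes. Of all protein-coding genes, 5.48%, 3.92% and 3.66% had a β-catenin peak and 30.0%, 24.0% and 23.0% a Pygo2 peak within 10, 2 and 1 kb. At the same limits, 1.83%, 1.24% and 1.12% of all protein-coding genes had overlapping peaks of both proteins. When peaks counted only for the protein-coding gene nearest to them, 1 β-catenin peak at 1 gene, 1 overlapping, and 10 Pygo2 peaks remained, with 2 and 9 other pathway genes. The first 50% of each list left 1 β-catenin peak at 1 gene, 1 overlapping, and Pygo2 peaks at 5 of the 10 genes, without Cyp26a1 and Cyp26c1. For the nearest-gene setting and the first 50% of the lists, no share of all protein-coding genes is given, so these counts have no background. An overlap of at least 85 bp left 0 overlapping pairs, and edges within 1 kb left 2. Of 140 values for single genes, 33 moved by more than 1.5 times, all of them to lower counts, since these settings narrow the window, shorten the lists or assign each peak to its nearest gene only. No paired analysis was possible because 1 library of each protein was analysed. Single lists, means of 14.6 and 15.5 tags per β-catenin and Pygo2 peak and lists without peak heights limit the counts: a gene without a listed peak may still be bound below the calling limit.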

Other observations

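The co-regulator gene Ncoa3, outside the 10, had 11 Pygo2 peaks with 4 protein-coding genes reaching into its window, and 2 of the 11 were nearest to Ncoa3 itself. All protein-coding genes with 4 to 9 genes in the window had 1.47 Pygo2 peaks on average and at most 18. Ncoa3 had 1 β-catenin peak in its window, at 93012 bp.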
